A study of Mus musculus with 8 samples.

Results

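The core circadian clock genes were examined in intestinal crypt organoids with and without overexpression of MG53. The members were a list of 10 genes: Clock, Arntl, Per1, Per2, Per3, Cry1, Cry2, Nr1d1, Nr1d2 and Dbp. They were found by their Ensembl identifiers among 13897 genes with a value, and their events were checked against exon boundaries of GRCm38. All 10 had a value in each of the 8 samples, and all 10 passed the filter of a mean of at least 0.5 FPKM, which left 10891 genes to test. Organoids are epithelial cultures that crypts, the pits holding the stem cells of the intestine, form in a gel. The WT group was 4 samples of genotype wt, and the MG53-TG group was 4 samples of genotype mg53-tg, whose mice carry a transgene that overexpresses MG53 in the whole body. The text of the study in one place names the sequenced organoids MG53;Lgr5, from a cross with an Lgr5 reporter line, and the groups here follow the labels, so whether these samples also carry that allele is not settled. Both groups were kept in Matrigel in the same commercial growth medium, and no other treatment is given for these samples. The age of the mice, the promoter of the transgene and the number of mice behind the samples are not given in the sources used here. The p-values thus measure only the spread between these samples, which may be technical. Each sample was 1 time point, and neither the hour of collection nor the time since the last change of medium is given in the labels, so the values are levels at that point and hold no amplitude or phase.

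The molecular clock is a feedback loop that runs in nearly every cell, gut epithelium included. CLOCK and ARNTL, also called BMAL1, bind DNA together at E-boxes and switch on the Per and Cry genes, whose proteins come back to block the pair. A second loop is formed by the receptors NR1D1 and NR1D2, also called REV-ERB alpha and beta, which repress Arntl, and DBP carries the rhythm to output genes through D-boxes. In the intestine the clock is known for timing nutrient transport and cell division.

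The deposited unit was FPKM, which divides the fragments of a transcript by its length and by the mapped total, and it was given for transcript events such as a transcription start or a transcription end. The FPKM of a gene was the sum over its start events, or over its end events where that mean was higher. For the comparison, limma was run on log2(FPKM + 1) and its p-values were adjusted by the Benjamini-Hochberg method over all genes tested, at a threshold of 0.05. The pseudocount shrinks the fold changes of low genes. The read depth of the samples is unknown. In bulk RNA, fewer cells of a type and less RNA per cell cannot be told apart.

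Trim72, which encodes MG53, had no entry in the 4 WT samples, while the MG53-TG samples had 16.4, 27.4, 31.9 and 36.5 FPKM. Of all genes tested, 1691 were higher and 3136 lower in MG53-TG, with a median log2 fold change of -0.17. Median-of-ratios scaling moved that median to -0.01 and the split to 2212 higher and 2205 lower. Directions below were therefore checked under both, except those of Camta1, Thra and Sphk2. Of the clock members, none changed direction under this scaling. Cell type markers moved with the genotype. The summed FPKM of 9 enterocyte markers was 914 to 1066 in WT and 11218 to 12400 in MG53-TG, and 9 of 9 were higher. The sum of 7 proliferation markers was 459 to 503 in WT against 132 to 346 in MG53-TG, where samples 3 and 4 were at 182 and 132, and 6 of 7 were lower. Of the stem cell markers 4 of 6 were lower, with sums of 463 to 640 in WT and 50.5 to 286 in MG53-TG. For Paneth cells 5 of 6 were lower, with sums of 1222 to 1637 and 258 to 459, and 1 had no entry. Goblet cell markers were lower in 5 of 7, with sums of 779 to 891 and 213 to 558. Enteroendocrine markers were higher in 4 of 7, with sums of 216 to 236 and 344 to 490. Markers of other cell types were mostly near 0. Tuft cell markers summed to at most 0.992 FPKM, no endothelial marker had an entry, and the immune cell marker Ptprc was at 0 in 7 samples and at 0.000508 FPKM in MG53-TG sample 2, although Cd68 had a mean of 6.14 FPKM in WT and 0.935 in MG53-TG. The fibroblast collagens Col1a2 and Col3a1 were at 0 in WT and at means of 1.24 and 1.26 FPKM over MG53-TG samples 2, 3 and 4, while MG53-TG sample 1 had no entry for either and was set to missing. Of the 7 mesenchyme markers these were the 2 that rose among 3 tested. Vim did not pass, with means of 2.41 FPKM in WT and 1.59 in MG53-TG (log2 fold change -0.41, limma adjusted p = 0.126), Col1a1 and Des were under the filter, and Pdgfra and Acta2 had no entry. The part of these shifts in the clock gene values below was not tested.

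Of the 10 clock members, 3 passed the test, which is read against 44.3% of all genes tested. Clock and Nr1d1 rose, 2 of 10 where 15.5% of all genes were higher, and Cry1 fell, 1 of 10 where 28.8% of all genes were lower. The other 7 did not pass. The median log2 fold change of the members was 0.12, beside -0.17 over all genes. It was 0.28 under median-of-ratios scaling, where that of all genes was -0.01, and 0.07 without MG53-TG sample 4. The values of the groups did not overlap for 4 of 10 members, namely Clock, Nr1d1, Cry1 and Per1, where 44.6% of all genes tested showed no overlap.

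**Figure D1:**
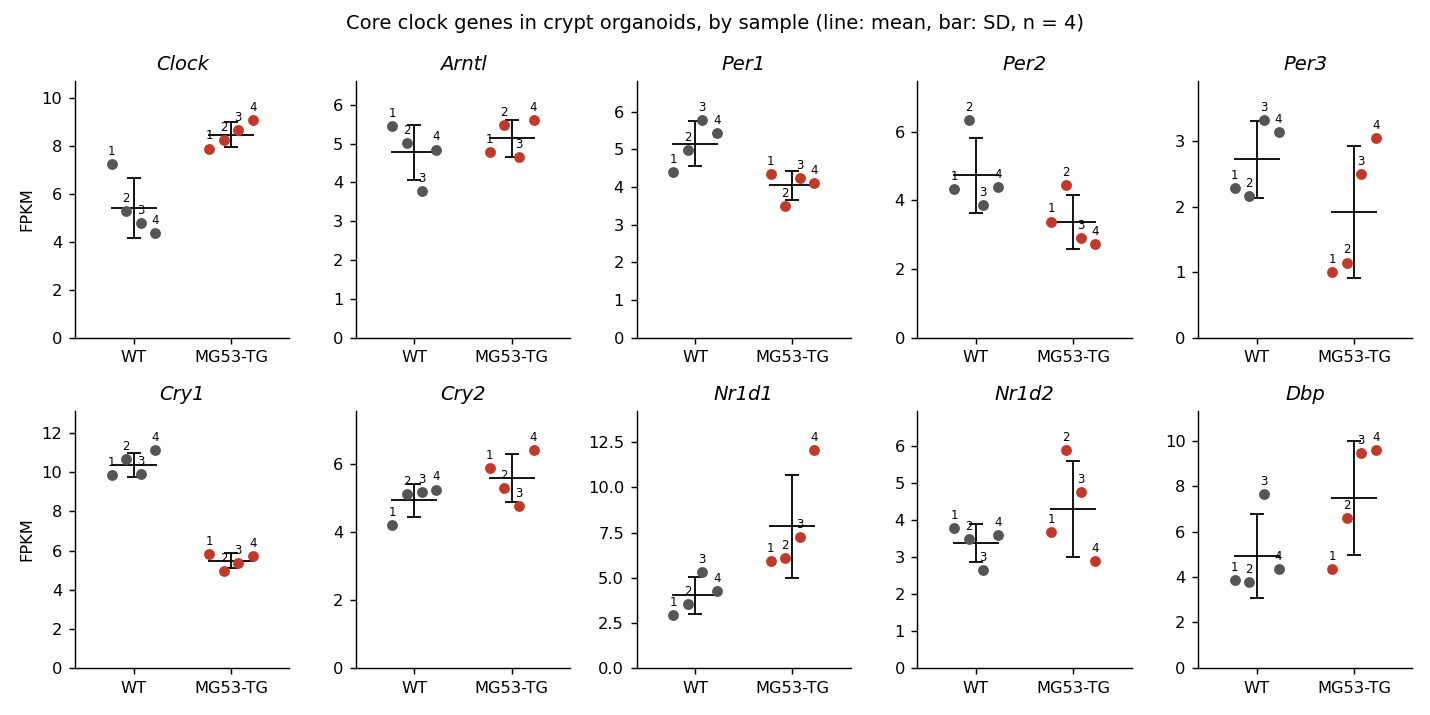
FPKM of the 10 core clock genes in each sample, with 1 panel per gene and its own axis from 0. Points are samples with their replicate number, the line is the mean and the bar the SD (n = 4). Cry1 lies between 9.85 and 11.1 FPKM in WT and between 4.96 and 5.80 FPKM in MG53-TG, and Clock and Nr1d1 are higher in each MG53-TG sample than in any WT sample.

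In the WT, Cry1 was the most abundant member by mean FPKM, a scale that corrects for transcript length, and its 4 values lay above those of Clock, the next in order. After Cry1 came Clock, Per1, Cry2, Dbp, Arntl, Per2, Nr1d1, Nr1d2 and Per3, with means from 5.41 down to 2.72 FPKM, and each of these overlapped its neighbour. In MG53-TG the order was Clock, Nr1d1, Dbp, Cry2, Cry1, Arntl, Nr1d2, Per1, Per2 and Per3, with means from 8.45 down to 1.92 FPKM, and every neighbouring pair overlapped. Cry1 thus stood at rank 1 in WT and at rank 5 in MG53-TG by its mean.

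The positive arm of the loop was described first. Clock, on chromosome 5 from 76209868 to 76304792 (minus strand), was at 7.22, 5.29, 4.77 and 4.37 FPKM in WT samples 1 to 4, in this order as in all lists below, and at 7.88, 8.22, 8.64 and 9.06 FPKM in MG53-TG. WT sample 1 stood closest to the MG53-TG samples, and the groups did not overlap. Its log2 fold change was 0.58 ± 0.14 (SE, limma adjusted p = 0.0119). Without MG53-TG samples 3 and 4, a comparison added after the data were seen, the change was 0.52 with an adjusted p of 0.0706 by limma. Arntl, its partner (chromosome 7, 113207465 to 113314126, plus strand), was at 5.44, 5.03, 3.77 and 4.85 FPKM in WT and at 4.78, 5.49, 4.65 and 5.60 FPKM in MG53-TG. The ranges overlapped in part, with WT sample 3 below all MG53-TG samples and MG53-TG samples 2 and 4 above all WT samples. The change of 0.09 ± 0.13 did not pass the test (limma adjusted p = 0.58). It was 0.25 under median-of-ratios scaling and 0.0042 without WT sample 3.

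NPAS2 can take the place of CLOCK beside ARNTL. Npas2 was at 13.2, 10.8, 11.5 and 14.9 FPKM in WT and at 5.09, 5.28, 3.87 and 3.38 FPKM in MG53-TG, so that every MG53-TG sample was lower than every WT sample. It fell by 1.34 ± 0.16 on the log2 scale (limma adjusted p = 0.000265). The levels of both partners were therefore set side by side within each library, a ratio that scaling of the library does not change. Clock made up 35.3%, 32.9%, 29.4% and 22.7% of the sum of Clock and Npas2 in WT and 60.8%, 60.9%, 69.1% and 72.8% in MG53-TG. Npas2 had the higher FPKM of both in all WT samples and Clock in all MG53-TG samples. Arntl2, the paralog of Arntl, was low, with means of 1.07 ± 0.60 FPKM in WT and 0.924 ± 0.490 FPKM in MG53-TG (SD, n = 4). Its change of -0.10 did not pass the test, and its sign turned under other scalings.

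**Figure D2:**
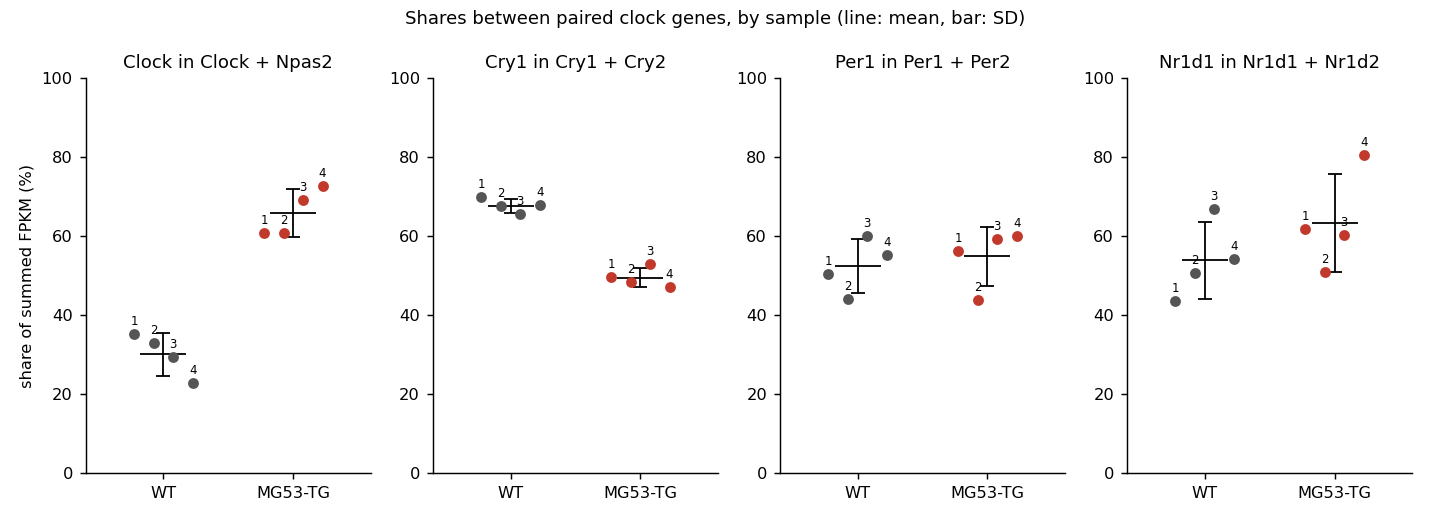
Share, from left to right, of Clock in the summed FPKM of Clock and Npas2, of Cry1 in Cry1 and Cry2, of Per1 in Per1 and Per2 and of Nr1d1 in Nr1d1 and Nr1d2, in percent, per sample, with the mean as a line and the SD as a bar (n = 4). The Clock share lies at 22.7% to 35.3% in WT and at 60.8% to 72.8% in MG53-TG, and the Cry1 share at 65.6% to 70.0% and 47.2% to 52.9%, while the groups overlap for the shares of Per1 and Nr1d1.

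Clock has a pair of first exons in these data, each with an annotated start in RefSeq, and its start FPKM was divided between them. The value of Clock above came from its end event, with a mean of 6.93 FPKM over the 8 samples. The downstream and upstream starts had means of 3.74 and 1.82 FPKM. The shares below are thus of the FPKM placed at a start, which is less than the value of the gene. The RefSeq windows from 250 bases before to 50 bases after each start (GRCm38.p6, minus strand, written 5′ to 3′) are shown because the start events tell both apart, and the capitals mark the first 50 transcribed bases. Neither window holds the E-box, D-box or ROR element letters searched below.
Clock upstream start (chr5:76304743-76305042): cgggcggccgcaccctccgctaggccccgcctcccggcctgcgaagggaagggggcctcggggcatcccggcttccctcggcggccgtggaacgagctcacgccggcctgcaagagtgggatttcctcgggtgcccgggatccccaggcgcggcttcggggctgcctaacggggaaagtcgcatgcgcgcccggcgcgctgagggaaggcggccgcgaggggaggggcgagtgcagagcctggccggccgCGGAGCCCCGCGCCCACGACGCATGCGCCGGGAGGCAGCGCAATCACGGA
Clock downstream start (chr5:76304499-76304798): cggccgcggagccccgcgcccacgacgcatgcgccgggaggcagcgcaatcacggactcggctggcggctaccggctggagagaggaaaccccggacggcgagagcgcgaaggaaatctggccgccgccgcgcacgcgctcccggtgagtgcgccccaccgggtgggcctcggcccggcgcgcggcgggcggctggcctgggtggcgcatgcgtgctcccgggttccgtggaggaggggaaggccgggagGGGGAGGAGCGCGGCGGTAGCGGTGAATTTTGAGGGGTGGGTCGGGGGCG

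The FPKM from the upstream start of Clock was 1.46, 0.925, 0.956 and 0.845 in WT and 2.84, 2.05, 3.61 and 1.88 in MG53-TG. All MG53-TG samples lay above all WT samples for this start. From the downstream start it was 3.94, 3.50, 3.08 and 3.15 FPKM in WT and 3.06, 5.40, 2.42 and 5.38 FPKM in MG53-TG, with overlapping ranges. The share of the downstream start was 73.0%, 79.1%, 76.3% and 78.8% in WT and 51.9%, 72.5%, 40.2% and 74.1% in MG53-TG. MG53-TG samples 1 and 3 were far below the rest, while sample 4 lay within the WT range and sample 2 just below it. The difference did not pass the two-sided exact permutation test (p = 0.0571, adjusted p = 0.229 over 4 shares, n = 4 per group).

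Arntl was also examined by transcript form. An exon of 21 bases, exon 5 of 20 of an annotated coding transcript (GRCm38 chr7:113281402-113281422, plus strand), adds 7 codons to the reading frame. It is annotated in 1 of 6 transcripts of the gene. The exon (capitals) is shown between the last and first 30 bases of the exons beside it, since it marks the form that is counted next.
Arntl short exon: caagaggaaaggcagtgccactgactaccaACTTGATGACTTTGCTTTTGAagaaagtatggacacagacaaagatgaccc

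The FPKM of Arntl transcripts with this exon was 0.183, 0.306, 0.180 and 0.101 in WT and 0.900, 1.51, 0.531 and 2.13 in MG53-TG. Transcripts that skip it were at 5.23, 4.65, 3.53 and 4.71 FPKM in WT and at 4.28, 3.91, 4.08 and 3.13 FPKM in MG53-TG. The form with the exon was thus 3.39%, 6.18%, 4.86% and 2.10% of both in WT and 17.4%, 27.8%, 11.5% and 40.6% in MG53-TG. The groups did not overlap. Among the 3 exon events of the members with both forms listed in all 8 samples, this had the smallest p (two-sided exact permutation test, p = 0.0286, adjusted p = 0.0857 over 3 events), which is the smallest the design allows. These events were looked at after the values had been seen.

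**Figure D3:**
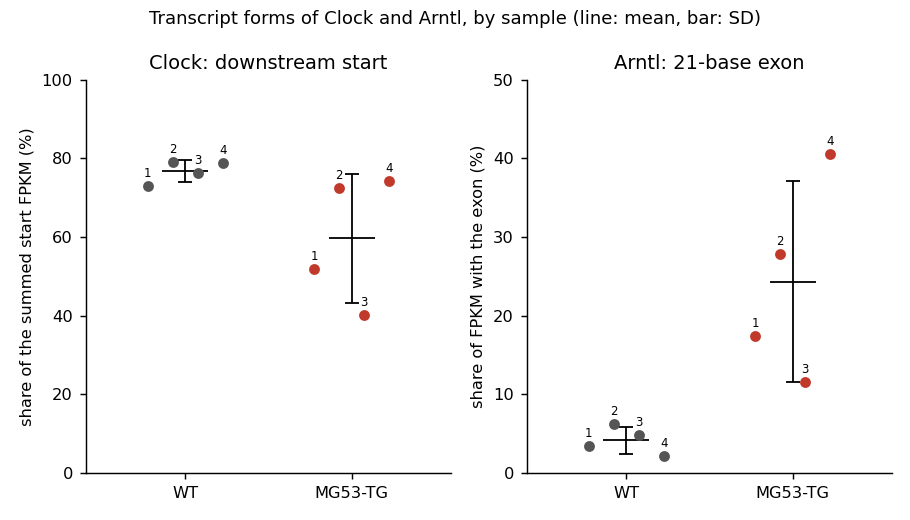
Share of the downstream start in the summed start FPKM of Clock (left) and share of FPKM with the 21-base exon of Arntl (right), in percent, per sample, with the mean as a line and the SD as a bar (n = 4). The exon share lies at 2.10% to 6.18% in WT and at 11.5% to 40.6% in MG53-TG, while the start shares of Clock overlap.

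The negative arm was described next. Cry1 and Cry2 encode the cryptochromes, the strongest repressors of the CLOCK and ARNTL pair. Cry1 (chromosome 10, 85131700 to 85185064, minus strand) was at 9.85, 10.7, 9.89 and 11.1 FPKM in WT and at 5.80, 4.96, 5.37 and 5.73 FPKM in MG53-TG. Both groups were tight, and a wide gap lay between them. It fell by 0.82 ± 0.10 on the log2 scale (limma adjusted p = 0.000318), a ratio of means of 0.526, and it passed under every alternative run. Cry2 (chromosome 2, 92403646 to 92434043, minus strand) was at 4.22, 5.13, 5.18 and 5.26 FPKM in WT and at 5.89, 5.30, 4.78 and 6.41 FPKM in MG53-TG. Its ranges overlapped, and the change of 0.15 ± 0.12 did not pass (limma adjusted p = 0.356). It was 0.31 under median-of-ratios scaling, and 0.09 without WT sample 1 and also without MG53-TG sample 4. Cry1 made up 70.0%, 67.6%, 65.6% and 67.9% of the summed cryptochrome FPKM in WT and 49.6%, 48.3%, 52.9% and 47.2% in MG53-TG. The share in each MG53-TG sample was below that in each WT sample. For the other pairs examined the groups overlapped, with Per1 at 52.4% ± 6.84 of the sum of Per1 and Per2 in WT and 54.9% ± 7.54 in MG53-TG, and Nr1d1 at 53.9% ± 9.81 and 63.4% ± 12.4 of the sum of both receptors (SD, n = 4).

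The 3 Period genes encode the partners of the cryptochromes, and all 3 were lower on average without passing the test. Per1 (chromosome 11, 69095217 to 69109960, plus strand) was at 4.39, 4.97, 5.77 and 5.43 FPKM in WT and at 4.35, 3.48, 4.23 and 4.12 FPKM in MG53-TG. The groups just failed to overlap, with WT sample 1 and MG53-TG sample 1 almost equal. The change was -0.28 ± 0.12 (limma adjusted p = 0.0816), -0.12 under median-of-ratios scaling, and -0.78 ± 0.48 from start events alone, with an adjusted p of 0.224. Per2 (chromosome 1, 91415982 to 91459324, minus strand) was at 4.34, 6.33, 3.85 and 4.40 FPKM in WT and at 3.38, 4.45, 2.90 and 2.73 FPKM in MG53-TG. MG53-TG sample 2 reached into the WT range. The change was -0.39 ± 0.17 (limma adjusted p = 0.0974), and without MG53-TG sample 2 it was -0.50 with an adjusted p of 0.0386. It was -0.24 under median-of-ratios scaling and -0.21 without MG53-TG samples 3 and 4. Per3 (chromosome 4, 151003652 to 151044665, minus strand) was at 2.28, 2.17, 3.32 and 3.13 FPKM in WT and at 0.997, 1.15, 2.50 and 3.04 FPKM in MG53-TG. MG53-TG samples 1 and 2 were below all WT samples, while samples 3 and 4 lay within the WT range. The change was -0.40 ± 0.25 (limma adjusted p = 0.215), between -0.58 and -0.24 when 1 library was left out, and -0.26 under median-of-ratios scaling. Per3 lies within the span of Camta1 on the same strand by 41014 bases, and Camta1 was lower (log2 fold change -0.43 ± 0.15, limma adjusted p = 0.0491). Whether Camta1 keeps this call, close to the threshold, under median-of-ratios scaling was not checked. Without MG53-TG samples 3 and 4, the comparison added after the data were seen, the change of Per3 was -0.83 with an adjusted p of 0.0115 by limma.

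The start of Per1 to which FPKM was assigned differed from library to library. The start at 69098948 had 3.23, 4.50 and 5.07 FPKM in WT samples 1, 2 and 4 and no entry in sample 3, which had 5.15 FPKM at the start at 69100152. MG53-TG samples 1 and 3 had 3.41 and 4.75 FPKM at the start at 69095217, and sample 4 had only 0.0583 FPKM over its starts, although its end event was at 4.12 FPKM. The share of the leading start was between 0% and 98.5% within the WT alone (two-sided exact permutation p = 0.143, adjusted p = 0.267, n = 4 per group). The value of Per1 was taken from its end event because the mean of that event was above the mean of the summed starts. For Per3 and Dbp the shares of the leading start had adjusted p of 0.743 and 0.267 in the same test. In all, 0 of 4 shares passed, and 0 of 4 had an unadjusted p under 0.05. At the Per2 locus 8 start and end events of single or few libraries matched no exon boundary and were left out, most of them on the strand opposite to the gene.

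Of the receptors of the second loop, Nr1d1 passed the test and Nr1d2 did not. Nr1d1 (chromosome 11, 98767932 to 98775333, minus strand), which represses Arntl, was at 2.92, 3.56, 5.34 and 4.28 FPKM in WT and at 5.95, 6.11, 7.23 and 12.0 FPKM in MG53-TG. All MG53-TG samples were above all WT samples, and MG53-TG sample 4 was the highest by far. It rose by 0.79 ± 0.23 on the log2 scale (limma adjusted p = 0.0232), a ratio of means of 1.95. The call rested on single libraries, since the adjusted p was 0.0635 without WT sample 1 and 0.0586 without WT sample 2, and it was 0.0946 without MG53-TG samples 3 and 4, with a change of 0.51. Nr1d1 overlaps Thra, the thyroid hormone receptor alpha gene of the opposite strand, by 1075 bases, and whether the libraries kept strand is not given, so reads of that stretch cannot be assigned with certainty. Thra was at 25.1, 17.0, 14.1 and 13.2 FPKM in WT and at 27.2, 29.9, 37.2 and 28.8 FPKM in MG53-TG (log2 fold change 0.82 ± 0.20, limma adjusted p = 0.00937). Nr1d2 (chromosome 14, 18204054 to 18239127, minus strand) was at 3.79, 3.47, 2.63 and 3.60 FPKM in WT and at 3.68, 5.88, 4.75 and 2.90 FPKM in MG53-TG. The order of the samples differed from that of Nr1d1, the ranges overlapped, and the change of 0.25 ± 0.19 did not pass (limma adjusted p = 0.302). It was 0.40 under median-of-ratios scaling, 0.12 without MG53-TG sample 2, 0.17 without WT sample 3 and 0.39 without MG53-TG sample 4. That the changes of both receptors differ from each other was not tested.

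Dbp (chromosome 7, 45705088 to 45710203, plus strand), the output activator, was at 3.86, 3.80, 7.65 and 4.37 FPKM in WT and at 4.34, 6.59, 9.46 and 9.58 FPKM in MG53-TG. WT sample 3 lay among the MG53-TG samples, and MG53-TG sample 1 among the WT samples. The change was 0.51 ± 0.27 (limma adjusted p = 0.151), 0.72 with an adjusted p of 0.0418 without MG53-TG sample 1, and 0.15 without MG53-TG samples 3 and 4. Dbp overlaps Sphk2 on the opposite strand by 737 bases. Sphk2 did not pass the test (log2 fold change 0.27 ± 0.13, limma adjusted p = 0.129).

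Within a group, some samples held the highest values of several members at once. WT sample 3 had the highest WT value of 4 of 10 members (Per1, Per3, Nr1d1 and Dbp) and the lowest of 3 (Arntl, Per2 and Nr1d2). MG53-TG sample 4 had the highest MG53-TG value of 6 members (Clock, Arntl, Per3, Cry2, Nr1d1 and Dbp) and the lowest of 2 (Per2 and Nr1d2). MG53-TG sample 1 had the lowest of Clock, Per3, Nr1d1 and Dbp. Nr1d1, Dbp and Per3 thus shared their highest sample in each group, sample 3 in WT and sample 4 in MG53-TG.

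The promoter windows of the members were searched for 3 short sequences on both strands: the E-box CACGTG, which CLOCK and ARNTL bind, the D-box TTATGTAA, which DBP, TEF and HLF bind, and AGGTCA, the core of the ROR element that ROR and NR1D receptors bind. RefSeq (GRCm38.p6) gave 13 windows of 300 bases for 9 of 10 members. The E-box was in 2 of 13 windows, those of Cry1 and of 1 start of Per1, beside 7.15% of all 32851 windows. The D-box was in 1 window, that of Per3, which holds it at 2 places, beside 0.938% of all. The ROR core was in 4 windows, of Arntl, Clock, Per1 and Nr1d2, beside 16.3% of all. The windows of Nr1d1 and Dbp held none of the 3, which says only that these letters are not within these bases. The windows below show where the letters lie in members of each arm, with the matches in capitals (5′ to 3′).
Cry1, E-box 60 bases before the start (chr10:85185005-85185304, minus strand): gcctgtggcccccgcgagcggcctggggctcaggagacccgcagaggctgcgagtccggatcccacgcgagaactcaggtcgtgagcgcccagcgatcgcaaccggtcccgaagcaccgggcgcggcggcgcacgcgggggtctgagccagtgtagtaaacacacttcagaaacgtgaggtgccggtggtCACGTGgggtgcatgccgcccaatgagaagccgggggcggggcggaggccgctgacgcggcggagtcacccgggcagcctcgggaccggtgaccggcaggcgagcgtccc
Per1, E-box 166 bases before and ROR core 137 bases before the start (chr11:69098699-69098998, plus strand): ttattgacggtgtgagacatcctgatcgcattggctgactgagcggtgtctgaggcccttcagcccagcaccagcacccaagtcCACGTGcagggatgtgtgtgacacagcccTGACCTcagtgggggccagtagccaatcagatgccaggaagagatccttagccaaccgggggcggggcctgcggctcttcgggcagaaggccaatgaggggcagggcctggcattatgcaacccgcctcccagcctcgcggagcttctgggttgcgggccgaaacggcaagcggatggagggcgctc
Per3, D-boxes 205 and 158 bases before the start (chr4:151044616-151044915, minus strand): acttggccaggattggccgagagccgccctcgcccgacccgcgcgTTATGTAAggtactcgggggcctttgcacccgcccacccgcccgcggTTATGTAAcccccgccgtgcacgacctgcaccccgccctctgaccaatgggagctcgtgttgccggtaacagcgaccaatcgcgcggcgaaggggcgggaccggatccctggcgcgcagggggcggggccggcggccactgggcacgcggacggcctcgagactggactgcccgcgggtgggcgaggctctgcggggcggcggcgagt
Arntl, ROR core 31 bases after the start (chr7:113207261-113207560, plus strand): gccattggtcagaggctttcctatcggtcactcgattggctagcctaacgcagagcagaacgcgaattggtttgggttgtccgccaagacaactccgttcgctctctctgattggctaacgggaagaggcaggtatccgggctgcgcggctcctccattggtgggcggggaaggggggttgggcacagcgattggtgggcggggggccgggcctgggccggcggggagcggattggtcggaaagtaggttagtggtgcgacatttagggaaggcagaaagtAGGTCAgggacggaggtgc

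The members that share the E-box letters, Cry1 and Per1, had means of 10.4 and 5.14 FPKM in WT and 5.47 and 4.05 FPKM in MG53-TG, and of these Cry1 passed the test. The means of Per1 are from its end event and cover all its starts. Its start at 69098948, to which the E-box window belongs, had 3.23, 4.50 and 5.07 FPKM in WT samples 1, 2 and 4. In MG53-TG that start had 0.403 and 0.124 FPKM in samples 1 and 3 and no entry in samples 2 and 4. A match is a description of the sequence, and no binding was measured here.

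The other genes of the clock pathway were taken from a list of 37, of which 3 had no entry (Rora, Rorb and Nfil3) and 3 were under the filter (Hlf, Bhlhe41 and Fbxl21). Of the 31 tested, 1 rose and 15 fell, where 15.5% and 28.8% of all genes did, and 13 of 31 showed no overlap of the groups, where 44.6% of all genes did. Their median log2 fold change was -0.36, beside -0.17 over all genes. Under median-of-ratios scaling the median was -0.17, beside -0.01 over all genes. Then 2 were higher and 9 lower, where 2212 and 2205 of 10891 genes were. Without MG53-TG samples 3 and 4 there were 7 calls in place of 16. Over all genes that fit called 3801 of 10779, in place of 4827 of 10891. Leaving out WT sample 1, WT sample 2 or MG53-TG sample 3 gave 10, 11 and 11 calls. In these fits 3872 of 10882, 3937 of 10881 and 3833 of 10860 genes passed.

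**Figure D4:**
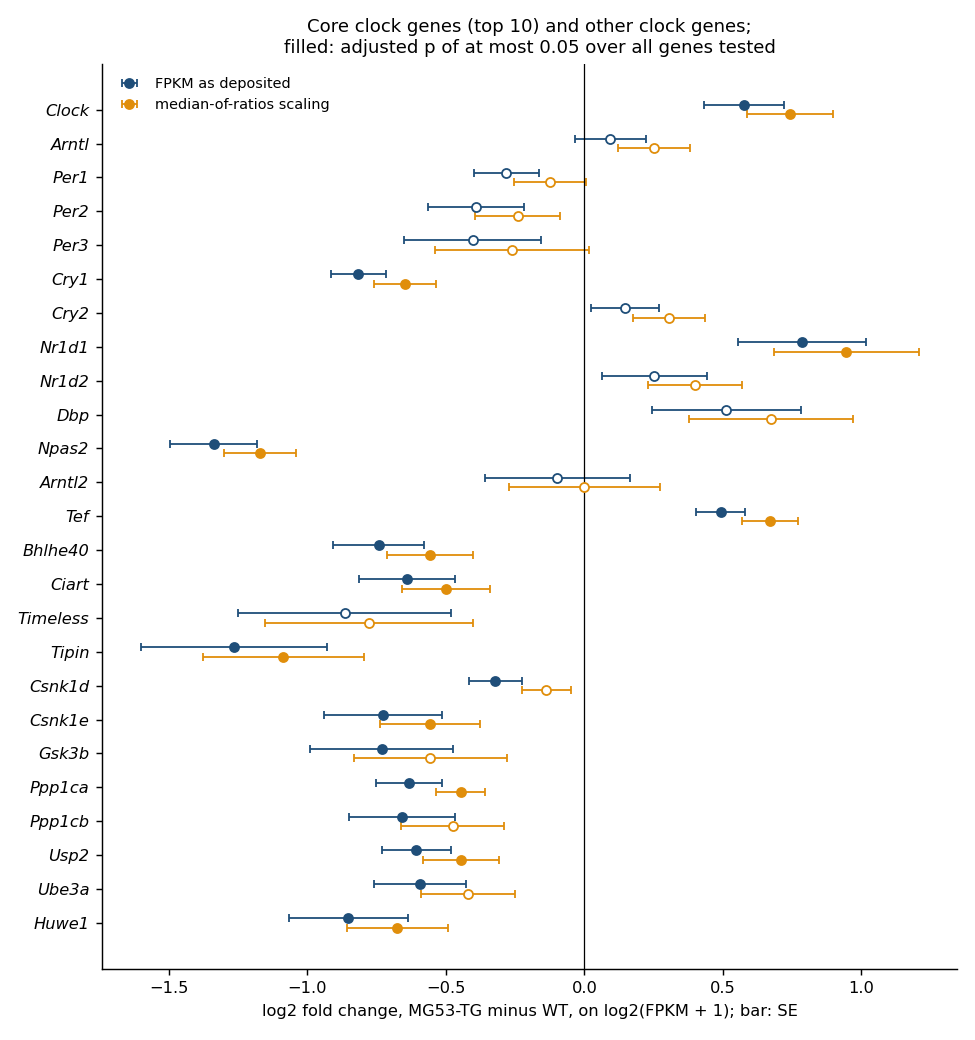
Log2 fold changes (MG53-TG minus WT, on log2(FPKM + 1)) of the 10 core clock genes and of 15 other clock genes, with the SE as a bar, from the FPKM as deposited (blue) and after median-of-ratios scaling (orange). Filled points passed an adjusted p of 0.05 over all genes tested. The 15 are a selection from the 31 other clock genes tested. As deposited, all of the 15 but Arntl2 and Timeless passed, while 16 of the 31 did. Npas2 has the lowest value shown at -1.34 and Nr1d1 the highest of the deposited scale at 0.79.

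The gene that rose was Tef, a D-box activator like DBP, which was at 12.2, 12.8, 13.8 and 12.3 FPKM in WT and at 18.7, 18.1, 17.3 and 19.4 FPKM in MG53-TG. The groups were tight and apart, and Tef rose by 0.49 ± 0.09 (limma adjusted p = 0.00268).

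Of the further repressors, 3 of 4 tested fell, where 28.8% of all genes did. Bhlhe40, which competes for E-boxes, was at 46.8, 65.8, 80.6 and 66.8 FPKM in WT and at 42.1, 41.1, 32.9 and 35.6 FPKM in MG53-TG, a change of -0.74 ± 0.16 (limma adjusted p = 0.00685). Ciart, also a repressor of the CLOCK and ARNTL pair, was at 2.68, 4.62, 4.11 and 4.63 FPKM in WT and at 2.33, 2.80, 1.85 and 1.81 FPKM in MG53-TG, a change of -0.64 ± 0.17 (limma adjusted p = 0.017). Both remained in the same direction but did not pass without MG53-TG samples 3 and 4 (adjusted p = 0.0582 and 0.118 by limma). Tipin and Timeless work at the replication fork besides their link to the clock. Tipin fell from 37.2 ± 2.38 to 16.7 ± 8.98 FPKM (SD, n = 4, limma adjusted p = 0.0152), with MG53-TG samples 3 and 4 at 9.67 and 8.25 FPKM. Timeless was at 2.52, 2.35, 0.217 and 0.142 FPKM in MG53-TG, so that samples 1 and 2 lay in the WT range of 2.20 to 2.99 FPKM and samples 3 and 4 far below it. It did not pass (limma adjusted p = 0.0969), but did without MG53-TG sample 1 or 2 (adjusted p = 0.0352 and 0.0423 by limma). The same samples 3 and 4 had the lowest sums of proliferation markers, and the part of these in the values of Tipin and Timeless was not tested.

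Kinases and phosphatases of the PER proteins were lower in 5 of 8, where 28.8% of all genes were. Under median-of-ratios scaling 2 were lower and 1 higher, where 2205 and 2212 of 10891 genes were. Without any 1 of WT samples 1 and 2 and MG53-TG sample 3 the number lower was 2. Over all genes 2436 of 10882, 2489 of 10881 and 2395 of 10860 were lower in these fits. Csnk1d and Csnk1e, which mark PER for breakdown, changed by -0.32 ± 0.10 and -0.73 ± 0.21 (limma adjusted p = 0.0244 and 0.0239). Csnk1d did not pass under median-of-ratios scaling, with a change of -0.14, nor without any 1 of WT samples 1 and 2 and MG53-TG samples 3 and 4 (adjusted p of 0.0554 to 0.0682 by limma). Csnk1e lost its call without WT sample 2, WT sample 4 or MG53-TG sample 3 (adjusted p of 0.0548 to 0.0655 by limma). Ppp1ca, a catalytic subunit of protein phosphatase 1, was at 95.4, 93.8, 94.2 and 90.8 FPKM in WT and at 70.0, 67.8, 55.0 and 49.4 FPKM in MG53-TG, and it fell by 0.63 ± 0.12 (limma adjusted p = 0.00316). Gsk3b and Ppp1cb changed by -0.73 and -0.66. Both lost their call under median-of-ratios scaling, Gsk3b with an adjusted p of 0.139 by limma. They also lost it without single libraries (adjusted p of 0.0564 to 0.116 by limma). For Gsk3b this was without any but WT sample 2 and MG53-TG sample 3. For Ppp1cb it was without WT sample 1, 2 or 3 or MG53-TG sample 3. Of the ubiquitin pathway, 3 of 6 tested fell, beside 28.8% of all genes. Usp2, a deubiquitinase of clock proteins, was at 6.06, 6.18, 8.19 and 6.40 FPKM in WT and at 3.72, 3.90, 4.59 and 3.95 FPKM in MG53-TG, and it fell by 0.61 ± 0.12 (limma adjusted p = 0.00471). Ube3a changed by -0.60, with an adjusted p by limma of 0.0545 without WT sample 1, 0.0535 without WT sample 2, 0.0757 under median-of-ratios scaling and 0.0711 under quantile normalization. Huwe1 changed by -0.85, and its sign turned to 0.27 where the highest single event could set the value. Of the chromatin cofactors 3 of 10 fell, namely Kmt2a, Nono and Sfpq, with changes of -0.51, -0.64 and -0.34, a share near the 28.8% of all genes that were lower. Of these 3, Nono also passed under median-of-ratios scaling. Kmt2a lost its call without any 1 sample except WT sample 3 and MG53-TG samples 1 and 2, and Sfpq without any 1 sample except MG53-TG samples 1 and 2 (adjusted p of 0.0605 to 0.108 by limma).

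Genes known to follow the clock in the gut and liver were given as 12 outputs, of which 1 was under the filter. Of the 11 tested, 6 rose, where 15.5% of all genes did, and 3 fell, a share near the 28.8% of all genes. Without WT sample 1 or 2 or MG53-TG sample 3 or 4, 4 rose, where 1436 to 1487 of all genes did. Por and Alas1 lost their calls in these fits, as they did without both MG53-TG samples 3 and 4. Por also lost its call without WT sample 3, WT sample 4 or MG53-TG sample 1, and without the filter on low values. The median log2 fold change was 0.43, and 0.23 without MG53-TG samples 3 and 4. Nampt, the rate-limiting enzyme of NAD salvage and an E-box target, was at 34.3, 35.3, 37.8 and 33.1 FPKM in WT and at 19.8, 18.9, 22.6 and 22.5 FPKM in MG53-TG, and it fell by 0.72 ± 0.10 (limma adjusted p = 0.000554). Wee1, the kinase that holds back mitosis, and Lonrf3 changed by -0.71 and -1.16. In MG53-TG Wee1 was at 9.05, 10.2, 5.90 and 5.07 FPKM. Its samples 3 and 4 were the lowest, as for the proliferation markers, and the part of these in Wee1 was not tested. Slc5a1, the glucose transporter of the brush border, rose by 2.69 ± 0.07 from a mean of 70.4 to 458 FPKM (limma adjusted p = 7.8e-08). Slc15a1, the peptide transporter, Abcb1a, an efflux pump, and Ppara, a fatty acid sensing receptor, rose by 1.67, 1.24 and 1.26. Slc15a1 had a mean of 0.355 FPKM in WT and 3.35 FPKM in MG53-TG. It passed the filter of 0.5 FPKM only through MG53-TG, so its rise is given as a description. At a filter of a mean of at least 2 FPKM it was not tested. Then 5 of 10 outputs rose, where 1432 of 9199 genes did. The outputs that rose include genes of mature enterocytes, whose markers rose in 9 of 9 cases, and the part of that shift was not tested.

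Glucocorticoids and fresh serum can set the phase of Per genes, and 10 of their early targets were examined, of which 3 had no entry and 2 were under the filter. Of the 5 tested, 1 rose and 2 fell, beside 15.5% and 28.8% of all genes. Tsc22d3 was at 9.24, 8.25, 8.16 and 7.82 FPKM in WT and at 18.7, 18.9, 12.9 and 22.8 FPKM in MG53-TG (log2 fold change 1.02 ± 0.16, limma adjusted p = 0.0013). Fkbp5, also induced by the glucocorticoid receptor, moved the other way, with 4.84, 4.82, 4.46 and 4.45 FPKM in WT and 2.61, 2.37, 1.81 and 1.38 FPKM in MG53-TG (-0.91 ± 0.15, limma adjusted p = 0.00153). Fos, an immediate early gene, was at 5.27, 5.65, 9.57 and 7.85 FPKM in WT and at 3.15, 2.22, 3.26 and 2.98 FPKM in MG53-TG (-1.03 ± 0.19, limma adjusted p = 0.00281).

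For the 3 members with the lowest adjusted p, the genes of most similar pattern over the 8 samples were taken from 10560 genes by Pearson's r on log2(FPKM + 1), as a description. For Cry1 these were Tspan8, Sqle and Inppl1 (r of 0.997, 0.994 and 0.992), for Clock Ifnar2, Ddhd2 and Klhl20 (0.983, 0.983 and 0.976), and for Nr1d1 Sec24a, Tob1 and Igsf9 (0.982, 0.979 and 0.976). With the group means subtracted, they were Tusc2, Erbin and Cyc1 for Cry1 (0.982, 0.972 and 0.966), Ddhd2, Slc25a12 and Dnajc15 for Clock (0.953, 0.948 and 0.946) and Tob1, Abcc10 and Cep44 for Nr1d1 (0.963, 0.957 and 0.955). Tob1 and Ddhd2 were thus named by both measures. All points of these correlations share their libraries and scaling, and no p is given for them.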

How the data were processed

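RNA sequencing of 4 WT and 4 MG53-TG organoid samples was analysed. The deposited files hold FPKM per transcript event, and the authors' processing notes list cutadapt 1.9.1, HISAT2 2.0.1, HTSeq 0.6.1, DESeq2 and the build mm10. The tool that made the event tables is not given in the sources used here. The smallest FPKM was 1e-06, whole reads could not be recovered, and the depth is unknown. Start and end events were matched to exon boundaries of the same strand in GENCODE M21 (GRCm38), which placed 89.9% of them, and for 4.58% the matching gene differed from the identifier in the file. A gene absent from a sample was set to missing if its group's other samples had a median FPKM of 0.5 or more, and to 0 otherwise. In all, 529 genes had a missing value, none of them a member.

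The fit used limma 3.58.1 (R 4.3.3) with a trended prior (lmFit, eBayes) on log2(FPKM + 1), for genes whose mean FPKM was 0.5 or more. Shares were compared by two-sided exact permutation tests over 70 relabellings, whose smallest p is 0.0286. In data simulated from the gene means and spreads, 200 of 10561 genes were changed. Of those changed by 1 on the log2 scale 67% were recovered, and of those changed by 2, 92%. Of the unchanged genes 12 were called, and 0 were called in data without a change. The simulated noise was independent between samples and of equal spread in both groups. In the real data 44.3% of genes passed, so these rates do not carry over to this comparison. The genes named were the members, genes of the other clock lists, Trim72 and the genes of most similar pattern for the 3 members of lowest adjusted p. The clock outputs, glucocorticoid targets and marker genes named outside this rule were chosen after their values were seen. Thra, Camta1 and Sphk2, also outside it, are the annotated genes with a value that overlap a member. Members and lists were chosen with earlier results of these data known. Scripts used Python 3.11.15. The alternatives are given with the closing observations. Promoter windows were from RefSeq, matched by symbol for 9 of 10 members. A few genes of the other clock lists are not reported here and were left out of their counts. The single-cell data and the reads were not used here.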

Additional observations from a re-analysis of the deposited data

Results flagged for a closer look

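In groups of 4, a sample far from the other 3 by Dixon's ratio was found for 6 values among 90 groups examined, where chance alone gives about 1 in 20. For the members, Cry2 was lowest in WT sample 1, at 4.22 FPKM, and Dbp was highest in WT sample 3, at 7.65 FPKM. For the other clock genes, Usp2 was highest in a WT sample at 8.19 FPKM and Ppp1cb lowest in a WT sample at 29.4 FPKM. For the outputs, Lonrf3 was lowest in an MG53-TG sample at 1.72 FPKM and Slc15a1 highest in a WT sample at 1.12 FPKM.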

How the results depend on the processing

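Of the clock members, 3 were called, and the alternatives gave 2 to 4. Over 216 pairs of a member and a setting, 208 kept direction and side of the threshold, 4 gained a call and 4 lost it, and 0 changed direction. Leaving out each sample gave 2 to 4 members, 3833 to 5107 of all genes in place of 4827, and 10 to 16 other clock genes in place of 16. End events alone gave 9 other clock genes, with 23 of them testable, where 3586 of 8290 genes passed. The fit without MG53-TG samples 3 and 4, added after the data were seen, gave 7, where 3801 of 10779 genes passed. Of the alternatives to the start shares, events of at least 2 FPKM left no gene with a pair of events, and leaving out each sample gave 0 passing shares, since the exact test of 3 against 4 samples cannot go below p = 0.0571. Keeping unannotated boundaries that overlap an exon was also added after seeing the data and changed no member's call.

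With the replicate block, 4 members were called, with Per2 at an adjusted p of 0.0468 by limma, and 4406 of all genes and 16 other clock genes, among which Sfpq lost its call (adjusted p = 0.0616), and it changed the call of no other gene named in the text. The deviations of samples with the same number correlated at 0.08, 0.01, 0.09 and -0.05, so no pairing by number was seen over all genes. Such correlations cannot exclude that samples of the same number were littermates or were handled together. Arntl2 reversed to 0.00 under median-of-ratios scaling (0.0001389), 0.0084 under quantile normalization and 0.33 with start events alone, and leaving out each sample gave -0.24 to 0.10. Huwe1 reversed to 0.27 where the highest single event could set the value. The cause was not tested. Depth is unknown, so levels near 1 FPKM, such as those of Arntl2 and of Per3 in MG53-TG samples 1 and 2, carry a precision that only the spread of 4 samples shows.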
